A study of Mus musculus with 12 samples.

Results

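The comparison of the cochlea at 4 weeks with the cochlea at 15 weeks covers the step from the young to the mature adult mouse. Its material was 8 of the 12 arrays of the series, which came from 4 of 6 pools of cochlear RNA. The mice were of the strain C57BL6j, an inbred line known for progressive hearing loss that begins early in adult life, and no mutation, transgene or treatment is named for any group. All animals were aged in the laboratory, the cochleae were taken after death with the vestibular organs removed, and tissue was pooled in groups of 5. The labels do not say whether the 5 were mice or single cochleae, or at what time of day the tissue was taken. The pools of each age carry the letters a and b and are written here as 4a, 4b, 15a and 15b. Biotin-labelled RNA of every pool was put on 2 Illumina mouse BeadChip arrays. Replicates are therefore the pools (n = 2 per age), and their number sets the precision of each difference. The probes compared were the named ones whose mean log2 level over the series lay above the median of all probes, 5.87. This rule left 19215 probes of 12595 genes, of 45281 probes in all, and the fit also held 3425 brighter probes without a single gene name. The rule used levels only, and the ages did not enter it. Just inside the limit lay a probe of Slc6a21 with a mean of 5.8662, and just outside it a probe of Vps39 with 5.8661.

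The cochlea turns sound into nerve signals. Its sensory hair cells carry bundles of actin-filled stereocilia beneath the tectorial membrane, and their synapses drive the spiral ganglion neurons, whose axons are wrapped by Schwann cells. Supporting cells and the fibrocytes of the spiral ligament and limbus are joined by gap junctions and return potassium to the stria vascularis, which sets the electrical potential of the inner ear fluid. The organ lies in bone with marrow spaces and next to the air-filled middle ear, whose lining holds ciliated and secretory cells. A dissected cochlea can therefore carry bone, marrow, muscle and mucosa, and in bulk RNA fewer cells of a type cannot be told apart from less RNA per cell.

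The labelled tissue was checked on cochlear genes. Coch, which encodes cochlin, the main matrix protein of the ligament and limbus, measured 12.82 and 12.59 in 4a, 12.75 and 12.89 in 4b, 12.71 and 12.96 in 15a and 12.78 and 12.88 in 15b. Gjb6, which encodes connexin 30, measured 13.05 and 13.04 in 4a, 13.12 and 13.10 in 4b, 13.15 and 13.20 in 15a and 13.24 and 13.09 in 15b, and the 8 values of Gjb2, which encodes connexin 26, ran from 12.68 to 13.16. These genes lay near the top of a scale that ran from 5.1 to 15.0 on every array with a median of 5.89. Otof, the gene of the hair cell synapse protein otoferlin, measured 8.04 and 8.20 in 4a, 8.15 and 7.75 in 4b, 7.54 and 7.67 in 15a and 7.99 and 7.67 in 15b. No probe of Slc26a5, which encodes the outer hair cell motor prestin, of the potassium channel gene Kcnq1, or of the neuronal genes Nefl and Tubb3 lay above the limit on level, and Kcnj10 and Ddx3y were not analysed here.

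Arrays of one pool were not always each other's closest match. Over the 22640 probes tested, arrays of the same pool correlated with r between 0.983 and 0.997 (median 0.986, 4 pairs), arrays of the same age from different pools with a median of 0.981 (8 pairs), and arrays of different ages with a median of 0.982 (16 pairs). These are correlations across probes, which are not independent and share one normalization. For 5 of the 8 arrays the nearest of the other 7 was the array of the same pool, and for 3 it was an array of the other age. The first array of 15a was nearest to the first array of 4b (r 0.986, against 0.983 with its own pool), and the second arrays of 15a and of 15b were nearest to the first array of 4a. The median gap between the arrays of a pool was 0.093 in 4a, 0.159 in 4b, 0.191 in 15a and 0.173 in 15b. Gaps over 1 log2 unit occurred at 0 probes in 4a, 48 in 4b, 200 in 15a and 200 in 15b.

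**Figure D1:**
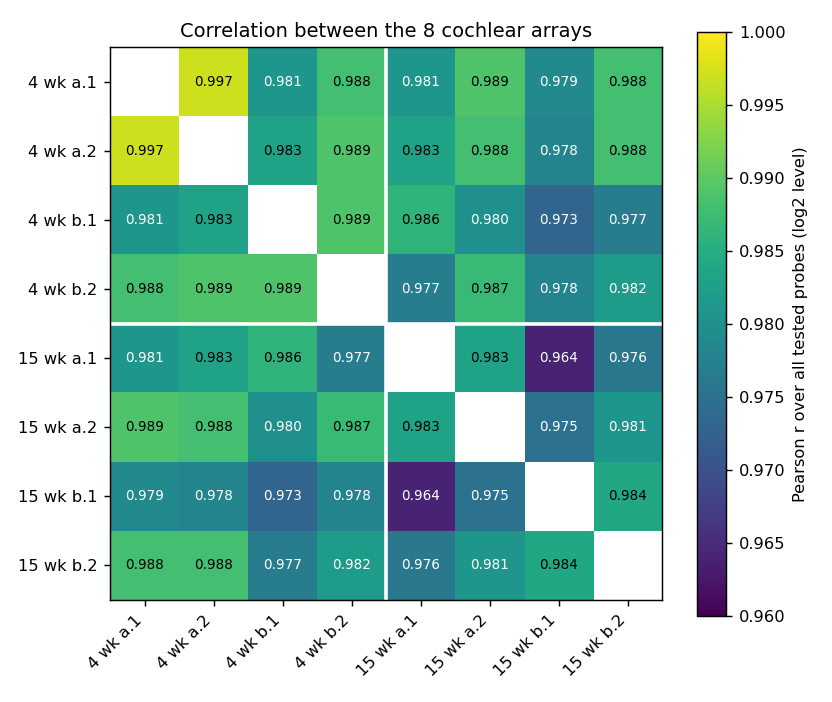
Pearson r between the log2 levels of the 8 arrays over the 22640 probes tested, with arrays named by age in weeks, pool letter and array number on both axes and the colour giving r. The lowest value, 0.964, joins the first arrays of the 15-week pools a and b, which are the same age, and the highest, 0.997, joins the arrays of 4a.

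The first array of 15b stood apart from the second. Ttr, the transthyretin gene, known for its high level in the choroid plexus, measured 13.82 on the first and 9.63 on the second array of 15b, against 9.94 to 10.35 on the other 6 arrays. A probe of Hsd3b2, a steroid dehydrogenase gene, measured 13.29 and 10.93, against 10.60 to 11.11. Gh, the growth hormone gene of the pituitary, measured 8.21 and 6.14, and Mobp, a gene of central myelin, 9.12 and 7.94. Of these genes, Ttr, Gh and Mobp were high in pool a at 45 weeks, with 12.24 and 12.40 for Ttr, 11.88 and 11.85 for Gh and 9.01 and 9.14 for Mobp. Gh was also high in pool b at 45 weeks, at 11.655 and 11.749, and so does not mark pool a. Over all tested probes the first array of 15b correlated at 0.982 with the first and 0.986 with the second array of the 45-week pool a. With the second array of its own pool it correlated at 0.984. Of the 200 probes with a gap over 1 within 15b, 180 (90.0%) had the first array on the side of the second on which the 45-week pool a lay of the mean of 4a, 4b and 15a. These probes were chosen by the gap itself. No such share was computed over all tested probes or for another pool, so a likeness particular to the 45-week pool a was not tested. Differences and list medians below that change sign or move by 1.5 times or more without the first array of 15b are given with and without it, a choice made after its values were seen.

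A different set of genes separated the arrays of 4b and 15a. Selenow, which encodes a small selenoprotein, measured 8.23 and 8.60 in 4a, 10.54 and 8.76 in 4b, 10.002 and 8.24 in 15a and 9.30 and 8.77 in 15b. Mt3, which encodes a metallothionein of neurons and glia, measured 7.33 and 7.54 in 4a, 9.42 and 8.0 in 4b, 9.13 and 7.95 in 15a and 8.91 and 7.63 in 15b. In 4b and 15a the first array was the higher one by over 1 log2 unit for both genes (for Mt3 also in 15b), and the arrays of 4a lay close to each other. Over all tested probes the gap between first and second array in 4b correlated with that in 15a at r 0.585. The mean of the arrays was used for each pool, and each technical array alone is treated under the dependence on processing.

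The sex-linked genes set 4b apart from the other 3 pools. Xist, transcribed from the inactive X chromosome, measured 8.66 and 8.45 in 4b and between 5.84 and 5.97 on the other 6 arrays at its probe of highest mean. The Y-linked gene Eif2s3y measured 5.34 and 5.71 in 4b and between 9.42 and 9.96 on the others. The age groups therefore differ in this respect, and a difference between ages that rests on 4b, in a sex-linked gene or any other, cannot be told apart from this imbalance.

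No probe passed limma's test between 4 and 15 weeks (0 of 22640, 0.00%), and the smallest adjusted p (Benjamini-Hochberg) was 1.0. At an unadjusted p under 0.05 there were 302 probes (1.33%), 151 higher at 15 weeks (0.667%) and 151 lower (0.667%), while a uniform spread of p-values would place 1132 there. The median absolute difference between ages was 0.085, against 0.144 between the pools at 4 weeks and 0.146 between those at 15 weeks. Outside the extreme tails (the 5th and the 95th percentile) differences ran from -0.23 to 0.23, and the median SE was 0.142. A single gene compared over 2 pools against 2 cannot reach an exact permutation p below 0.333. The 4 arrays of one age did not overlap the 4 of the other at 757 probes (3.34%), 362 of them higher at 15 weeks (1.60%) and 395 lower (1.74%). With 1 probe per gene, the brightest, this held for 460 of 12595 genes (3.65%), 271 of them lower at 15 weeks (2.15%) and 189 higher (1.50%), and 190 genes had an unadjusted p under 0.05 (1.51%). The 2 arrays of a pool are not separate replicates. Counted by pools, the 2 of one age did not overlap the 2 of the other at 5983 probes (26.4%). By sign alone 49.3% of the probes were higher at 15 weeks. All differences below are log2 level at 15 weeks minus log2 level at 4 weeks, and the words higher and lower give the side of a difference that did not pass the test.

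The 2 pools of an age did not repeat each other's differences. The differences 15a minus 4a and 15b minus 4b have no sample in common, and they correlated across probes at Pearson r -0.291 and Spearman rho -0.173, with the same sign at 45.0% of the probes. Paired the other way, 15b minus 4a and 15a minus 4b correlated at r -0.178 and rho -0.208, with the same sign at 42.6%. Of 107 probes that differed by at least 1 in 15a minus 4a, 28 had the same sign in 15b minus 4b and 17 of these also reached 1 there. Among genes with at least 2 tested probes (4648), the differences of the 2 brightest probes correlated at r 0.452 and had the same sign in 61.1%. Where the brightest probe differed by at least 0.5, the second had the same sign in 41 of 42 genes.

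**Figure D2:**
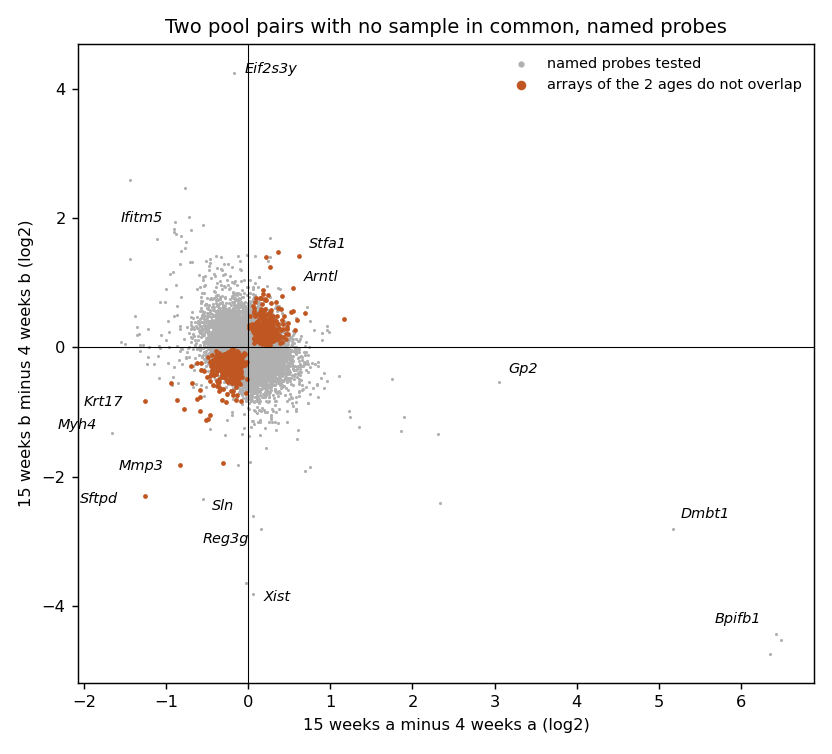
Each point is a named probe, with 15a minus 4a on the horizontal axis and 15b minus 4b on the vertical axis, both in log2 units, and orange points are probes whose 4 arrays at one age do not overlap the 4 at the other. Sftpd, Mmp3 and Krt17 lie low on both axes, while Bpifb1 lies at 6.43 on the first and -4.43 on the second.

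Large differences between the age means were few and often set by 1 pool. A difference of at least 1 log2 unit was reached by 59 probes (0.261%), 38 of them higher at 15 weeks, and only 14 of the 59 had a gene name (0.0729% of the named probes). The higher named genes of this size were the Y-linked Eif2s3y at 2.04 (SE 1.60), Gp2, Dmbt1 and Stfa1, and Bpifb1 lay just below it. Bpifb1, which encodes a secreted protein of airway mucosa, differed by 0.997 (SE 2.69) and measured 7.46 and 7.54 in 4a, 11.63 and 11.66 in 4b, 13.72 and 14.14 in 15a and 7.23 and 7.19 in 15b. Dmbt1, which encodes a mucosal glycoprotein that binds bacteria, differed by 1.18 (SE 2.01) and measured 5.83 and 5.83 in 4a, 8.66 and 8.37 in 4b, 11.10 and 10.91 in 15a and 5.70 and 5.72 in 15b. Gp2, which encodes a glycoprotein known from pancreas and mucosal M cells, differed by 1.26 (SE 0.83) and measured 5.74 and 5.87 in 4a, 6.57 and 6.68 in 4b, 8.94 and 8.78 in 15a and 6.32 and 5.88 in 15b. For Bpifb1 and Dmbt1, 15a was highest and 4b second and the other 2 pools lowest, so that the ages overlapped. Reg3g, the gene of an antibacterial lectin, had the reverse outlier, with 9.67 and 9.47 in 4b against 6.65 to 7.45 on the other 6 arrays. Stfa1, a stefin gene of neutrophils, was the only higher named gene of this size without overlap between the ages. It measured 7.32 and 7.27 in 4a, 7.61 and 7.38 in 4b, 7.85 and 7.96 in 15a and 8.47 and 9.35 in 15b, a difference of 1.02 (SE 0.53). The lower named genes of this size without overlap were Sftpd, Mmp3, Krt17 and Cyp2e1, a cytochrome P450 gene with pool levels of 8.195, 8.963, 7.888 and 7.169 in 4a, 4b, 15a and 15b.

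Among the lower genes were several of stratified epithelium. Krt17 and Krt14, which encode keratins of basal and stress-exposed epithelial cells, measured 7.57 and 7.63 in 4a, 7.62 and 7.56 in 4b, 6.21 and 6.48 in 15a and 6.91 and 6.62 in 15b for Krt17 and 8.13 and 8.17 in 4a, 8.18 and 8.47 in 4b, 7.23 and 7.35 in 15a and 7.75 and 7.28 in 15b for Krt14. For both genes all 4 arrays at 15 weeks lay below all 4 at 4 weeks, with differences of -1.04 (SE 0.16) and -0.83 (SE 0.14), or 2.06-fold and 1.78-fold, and unadjusted p = 0.00035 and 0.000522 by limma. In the pools taken at 45 weeks Krt17 measured 7.29 to 7.38 and Krt14 7.95 to 8.126, and all 4 of their arrays lay between the levels of the other ages for both genes (lowest 4-week array of Krt14 8.132). Cldn4, which encodes a tight junction claudin, measured 8.10 and 8.31 in 4a, 8.38 and 8.13 in 4b, 7.64 and 7.41 in 15a and 7.84 and 7.59 in 15b, a difference of -0.61 (SE 0.23) with no overlap. Lgals7, the gene of a galectin of stratified epithelia, differed by -0.43 (SE 0.15), also without overlap, with pool levels of 6.23 in 4a, 5.90 in 4b, 5.60 in 15a and 5.66 in 15b. Krtdap, which is expressed in differentiating keratinocytes, differed by -0.46 (SE 0.21) with overlap, since 4b at 5.75 and 6.06 reached the 15-week values. The levels of Lgals7 and Krtdap in 4b, 15a and 15b lay near or below the array median of 5.89, and no detection values were used. Krt15, another keratin gene, differed by only -0.015, and by -0.045 without the first array of 15b. Evpl, the envoplakin gene, differed by 0.04 (SE 0.12) and was 1 of the 2 members on the other side, at 0.09 without the first array of 15b.

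Of 43 keratin and squamous epithelium genes, 23 were tested, and 21 of these were lower at 15 weeks and 2 higher, against 53.3% lower and 46.7% higher over 12595 genes. Their median difference was -0.12, against -0.01 over all genes. The median was negative in each of the 4 pairs of pools, between -0.17 and -0.08, and remained negative without each pool in turn. The mean level of the list was 7.17 in 4a, 7.16 in 4b, 6.93 in 15a and 6.95 in 15b. The list was chosen with results of these data known, so its direction is a description, and no test was run on it or on any list below.

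Some genes of airway and mucosal defence also lay lower at 15 weeks. Sftpd, which encodes the lectin surfactant protein D, measured 8.72 and 8.86 in 4a, 9.17 and 9.45 in 4b, 7.33 and 7.74 in 15a and 7.18 and 6.85 in 15b, and its difference of -1.78 (SE 0.26) was 3.43-fold (unadjusted p = 0.000262 by limma). Cbr2, a carbonyl reductase gene known from lung, measured 10.14 and 10.16 in 4a, 10.32 and 10.52 in 4b, 9.56 and 9.81 in 15a and 9.24 and 9.52 in 15b, and Wfdc2, the gene of a secreted protease inhibitor, had pool levels of 12.40 in 4a, 12.81 in 4b, 12.05 in 15a and 12.13 in 15b. Muc1, a membrane mucin gene, differed by -0.32 (SE 0.16). Ltf, the lactoferrin gene, differed by -0.40 (SE 0.14) and is also a member of the neutrophil granule list described below, so its tissue of origin is not settled. These 5 genes and Cyp2a5 were the members of the airway and middle ear secretory list whose arrays did not overlap, all lower at 15 weeks, against 2.15% lower and 1.50% higher over all genes. Of the 23 tested genes of the list, 18 were lower and 5 higher, with a median of -0.26. The pools did not share this median, which was 0.07 in 15a minus 4a and -0.68 in 15b minus 4b. The mean level of the list was 8.89 in 4a, 9.56 in 4b, 9.41 in 15a and 8.57 in 15b, so that 1 pool of each age was high. The part of this mucosal material in the differences of single genes was not tested.

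Several lower genes belonged to neither group. Mmp3, which encodes the matrix protease stromelysin, measured 7.59 and 7.75 in 4a, 8.36 and 8.35 in 4b, 6.83 and 6.84 in 15a and 6.23 and 6.85 in 15b, a difference of -1.32 (SE 0.27). Mmp13, the gene of a collagenase of bone and cartilage, measured 12.36 and 12.43 in 4a, 12.26 and 12.48 in 4b, 11.56 and 11.85 in 15a and 12.23 and 11.93 in 15b, and Timp3, which encodes an inhibitor of such proteases, measured 11.67 and 11.61 in 4a, 11.67 and 11.61 in 4b, 11.50 and 11.36 in 15a and 11.38 and 11.02 in 15b. Neither gene overlapped between the ages, with differences of -0.49 (SE 0.16) and -0.33 (SE 0.12). Of the 24 metalloprotease and inhibitor genes tested, 16 were lower and 8 higher, with a median of -0.05. Arg1, which encodes the urea cycle enzyme arginase, measured 6.55 and 6.41 in 4a, 6.88 and 7.27 in 4b, 5.92 and 6.01 in 15a and 5.78 and 6.12 in 15b, with 4b above 4a and both above every 15-week array. Pls1, the gene of the actin-bundling protein plastin, which in hair cells crosslinks the filaments of stereocilia, measured 8.73 and 8.63 in 4a, 8.81 and 8.72 in 4b, 8.32 and 8.36 in 15a and 8.11 and 8.13 in 15b, a difference of -0.49 (SE 0.13).

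Kdm6a, an X-linked gene for a histone demethylase that is known to escape X inactivation, measured 9.92 and 9.98 in 4a, 10.11 and 10.57 in 4b, 9.18 and 9.54 in 15a and 9.67 and 9.49 in 15b. Its difference of -0.67 (SE 0.16) had the same sign at its second tested probe. Pool 4a, with Xist as low as at 15 weeks, also lay above every 15-week array, and 15a minus 4a was -0.58. The part of the imbalance of Xist in the difference was not tested. Myo9b, an unconventional myosin gene, measured 9.88 and 9.87 in 4a, 9.80 and 10.03 in 4b, 9.06 and 9.77 in 15a and 9.53 and 9.43 in 15b, with the second array of 15a at 9.77 just below the lowest 4-week array at 9.80. Rassf2, a gene of the Ras association family, measured 8.81 and 8.80 in 4a, 9.21 and 9.0 in 4b, 8.79 and 8.06 in 15a and 8.55 and 8.47 in 15b, where the first array of 15a nearly reached the 4-week arrays. Catsperz, which encodes a subunit of the sperm calcium channel, differed by -0.51 (SE 0.12). None of these overlapped between the ages, and for Arg1 and Rassf2 the second tested probe had the opposite sign.

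The higher genes were of mixed function and smaller difference. Mid1, an X-linked gene for a ubiquitin ligase of microtubules, measured 5.98 and 6.03 in 4a, 6.59 and 6.28 in 4b, 6.83 and 7.52 in 15a and 7.13 and 6.63 in 15b. The lowest 15-week array, at 6.63, lay just above the highest 4-week array, at 6.59, and the difference was 0.81 (SE 0.22). Cat, which encodes the peroxide-degrading enzyme catalase, measured 6.29 and 6.36 in 4a, 6.39 and 6.21 in 4b, 6.59 and 6.67 in 15a and 6.93 and 6.52 in 15b at the probe with the smaller p, a difference of 0.37 (SE 0.11). At its brightest probe the difference was 0.23 (SE 0.18), with overlap, and 0.35 without the first array of 15b. Hpgd, which encodes the enzyme that inactivates prostaglandins, measured 8.47 and 8.54 in 4a, 8.13 and 8.02 in 4b, 9.02 and 8.66 in 15a and 8.57 and 8.99 in 15b, a difference of 0.52 (SE 0.16). Tesc, the gene of the calcium-binding protein tescalcin, differed by 0.51 (SE 0.15), and Igsf11, the gene of an immunoglobulin-like adhesion protein, by 0.35 (SE 0.11).

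Rfesd, which encodes a protein with a Rieske iron-sulphur domain, differed by 0.50 (SE 0.15), Trappc13, a subunit gene of a vesicle-tethering complex, by 0.35 (SE 0.11), and Nxpe2 by 0.54 (SE 0.16). In each of these genes all 4 arrays at 15 weeks lay above all 4 at 4 weeks. For Rfesd 2 of 3 tested probes had the same sign and for Igsf11 also 2 of 3. Prg3, an eosinophil granule gene, Isg20, an interferon-induced exonuclease gene, and Slc31a2, a copper transporter gene, belong to the same higher set with differences of 0.61 (SE 0.12), 0.56 (SE 0.11) and 0.46 (SE 0.12).

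**Figure D3:**
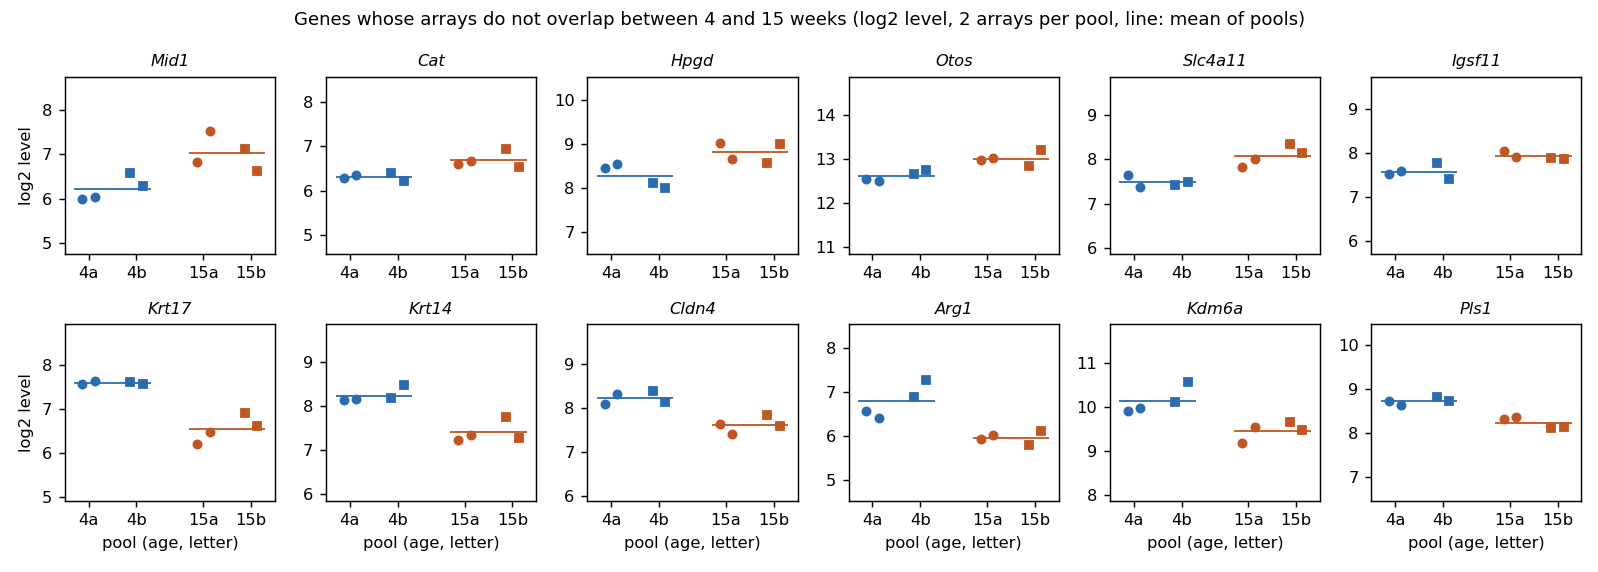
Log2 level on each of the 8 arrays (circles: pools a, squares: pools b, blue: 4 weeks, orange: 15 weeks) for 12 genes whose arrays do not overlap between the ages, with a line at the mean of the 2 pools. The upper row holds 6 genes higher at 15 weeks and the lower row 6 genes lower at 15 weeks, and Krt17 shows the narrowest spread at 4 weeks.

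Most of the circadian clock genes tested lay lower at 15 weeks, and Arntl lay higher. In this clock the activators ARNTL and CLOCK bind E-boxes (CACGTG) and switch on the Per and Cry repressors, Ciart and Nr1d1, and PAR-domain factors such as DBP and TEF bind D-boxes (TTATGNAA). Arntl measured 7.64 and 7.65 in 4a, 7.01 and 7.31 in 4b, 8.07 and 8.32 in 15a and 7.98 and 8.17 in 15b, so that all 15-week arrays lay above all 4-week arrays, with a difference of 0.73 (SE 0.18) (unadjusted p = 0.0052 by limma). On the repressor side, Per1 measured 8.45 and 8.33 in 4a, 8.88 and 9.01 in 4b, 7.83 and 7.79 in 15a and 8.86 and 7.89 in 15b. Per2 measured 8.58 and 8.47 in 4a, 8.89 and 8.66 in 4b, 7.67 and 7.67 in 15a and 8.69 and 7.75 in 15b. Ciart, which represses ARNTL and CLOCK, measured 7.25 and 7.18 in 4a, 7.52 and 7.75 in 4b, 6.50 and 6.67 in 15a and 7.52 and 6.60 in 15b. In all 3 genes 15a and the second array of 15b lay below every 4-week array, and the first array of 15b lay within the range of 4 weeks.

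Per3 measured 6.45 and 6.30 in 4a, 6.32 and 6.30 in 4b, 6.12 and 5.74 in 15a and 6.08 and 5.98 in 15b, and Dbp measured 11.51 and 11.48 in 4a, 11.69 and 11.82 in 4b, 10.56 and 10.55 in 15a and 11.43 and 10.98 in 15b, both without overlap between the ages. The differences were -0.58 (SE 0.26) for Per1, -0.70 (SE 0.41) for Per2, -0.36 (SE 0.15) for Per3, -0.60 (SE 0.27) for Ciart and -0.74 (SE 0.30) for Dbp. Nr1d2, which encodes a nuclear receptor that represses Arntl, measured 9.60 on the first array of 15b and 8.71 on the second, against 9.0 to 9.26 at 4 weeks, a difference of -0.15 (SE 0.19). Clock itself differed by -0.10 (SE 0.13), Cry2, a cryptochrome repressor gene, by 0.04 (SE 0.14), and Rora, an activator of Arntl, by -0.04 (SE 0.20). The differences of Clock and Cry2 were -0.02 and 0.01 without the first array of 15b.

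Without the first array of 15b, the difference was 0.78 for Arntl, -0.82 for Per1, -0.94 for Per2, -0.83 for Ciart, -0.86 for Dbp and -0.38 for Nr1d2. The 3 arrays left at 15 weeks then lay below all 4-week arrays for 9 of the 28 clock and clock output genes tested, against 4.30% of all genes, and above them for 1, Arntl, against 2.61%. The 9 were Per1, Per2, Per3, Nr1d2, Ciart, Dbp, Tef, Klf9 and Tsc22d3. With all 4 arrays it was 1 higher, against 1.50% of all genes, and 2 lower, Per3 and Dbp, against 2.15%. The first array of 15b was left out after its clock values were seen, so the counts without it are a description and no support. The core clock list (14 genes tested) had 12 lower and 2 higher, with a median of -0.17 that lay between -0.23 and -0.12 in the 4 pairs of pools. The clock output list (14 tested) also had 12 lower and 2 higher, with a median of -0.15, between -0.31 and -0.03 in the pairs. These transcripts cycle over the day in many tissues, and age and time of dissection cannot be told apart here.

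**Figure D4:**
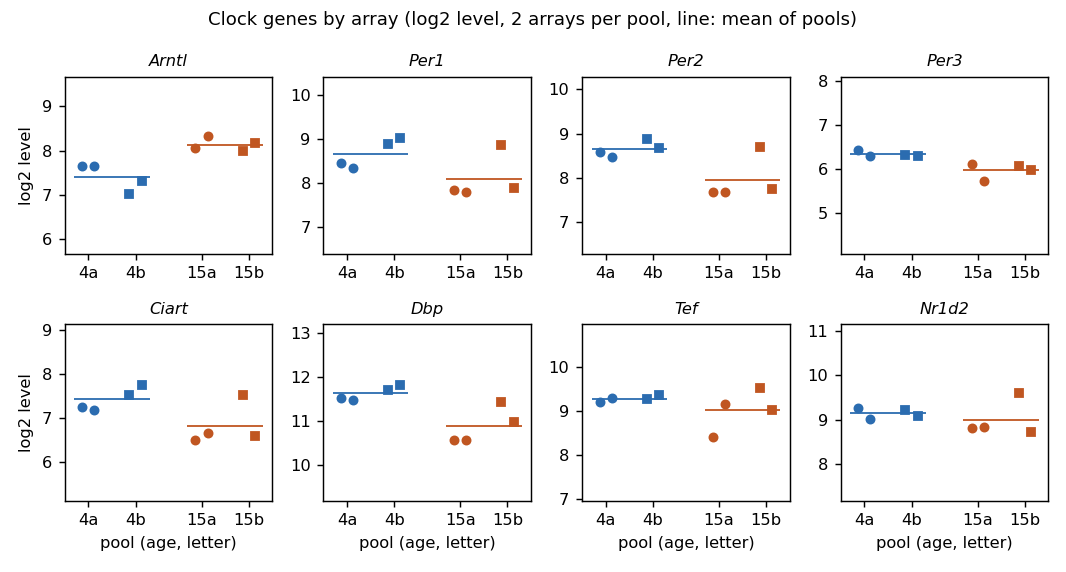
Log2 level of 8 clock genes on each array (circles: pools a, squares: pools b, blue: 4 weeks, orange: 15 weeks), with a line at the mean of the 2 pools. Arntl lies higher at 15 weeks, and for Per1, Per2, Ciart, Tef and Nr1d2 the first array of 15b lies near or above the 4-week values while the other 3 lie below them.

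The promoters of 3 of these genes are shown for the clock elements they carry, as the 250 bases before the start of the gene in the RefSeq annotation of GRCm38.p6, 5′ to 3′ on the strand of the gene, with E-boxes and D-boxes in capitals. Ciart (chr3:95882229-95882478, minus strand) holds 3 E-boxes, Per1 (chr11:69098699-69098948, plus strand) holds 1 E-box and 1 D-box, and Per3 (chr4:151044666-151044915, minus strand) holds 2 D-boxes.
Ciart: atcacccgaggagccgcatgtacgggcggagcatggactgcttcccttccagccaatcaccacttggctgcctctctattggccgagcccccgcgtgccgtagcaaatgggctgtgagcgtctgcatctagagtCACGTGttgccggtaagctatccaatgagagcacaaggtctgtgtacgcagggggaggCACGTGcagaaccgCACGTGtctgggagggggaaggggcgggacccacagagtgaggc
Per1: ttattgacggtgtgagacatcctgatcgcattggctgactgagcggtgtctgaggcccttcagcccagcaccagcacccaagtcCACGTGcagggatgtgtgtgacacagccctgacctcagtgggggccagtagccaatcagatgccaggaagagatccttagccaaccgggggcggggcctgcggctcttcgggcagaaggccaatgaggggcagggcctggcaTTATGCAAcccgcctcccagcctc
Per3: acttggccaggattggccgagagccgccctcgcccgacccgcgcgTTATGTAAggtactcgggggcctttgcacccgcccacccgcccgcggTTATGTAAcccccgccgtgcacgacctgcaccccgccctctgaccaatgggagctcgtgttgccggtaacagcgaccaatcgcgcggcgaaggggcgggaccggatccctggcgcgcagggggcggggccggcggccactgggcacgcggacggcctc
Both motifs were searched on both strands, and no match of one overlapped a match of the other in these 3 windows. An E-box stood in the same window of 6.02% of 32851 promoters in the table and a D-box in 3.07%. Of the 28 clock and clock output genes tested, 23 had a promoter in the table, and of their 39 promoters 7 held an E-box and 4 a D-box. In Ciart the E-boxes began 116, 58 and 44 bases before the start, and in Per1 the E-box 166 and the D-box 24 bases before it. Tef and Klf15 also held E-boxes, and their differences were -0.25 (SE 0.33) and -0.04 (SE 0.14). The windows of Arntl and Dbp held neither motif, while Arntl and Dbp lay on opposite sides between the ages. A match describes these letters and is no evidence of binding.

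Genes of the sensory and supporting cells differed little. Of 22 hair bundle and hair cell genes tested, 16 were lower at 15 weeks and 6 higher, with a median of -0.07, and the median was -0.13 in 15a minus 4a and 0.06 in 15b minus 4b. Ush1c, which encodes harmonin of the bundle's tip links, measured 9.57 and 9.68 in 4a, 9.68 and 9.30 in 4b, 9.23 and 9.20 in 15a and 9.24 and 9.15 in 15b, without overlap between the ages. Espn, the gene of the actin bundler espin, measured 9.21 and 9.23 in 4a, 9.28 and 8.99 in 4b, 8.90 and 8.99 in 15a and 9.13 and 8.90 in 15b, and Pvalb, a calcium buffer gene, was lower in 15a alone, at 12.88 and 12.69 against 13.09 to 13.42 on the other 6 arrays. The skeletal muscle list also had its lowest mean level in 15a, at 8.17, and the part of muscle in the Pvalb values was not tested. Otof differed by -0.32 (SE 0.17), Tmc1, a subunit gene of the transduction channel, by -0.07 (SE 0.15), Myo7a, a bundle myosin gene, by -0.10 (SE 0.11) and Cdh23, the tip link cadherin gene, by 0.10 (SE 0.12). The differences of Myo7a and Cdh23 were -0.06 and 0.06 without the first array of 15b. The 12 hair cell synapse genes tested had a median of -0.08, with 8 lower and 4 higher.

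Otog, which encodes otogelin of the acellular membranes, measured 10.002 and 9.96 in 4a, 9.73 and 9.57 in 4b, 9.52 and 9.29 in 15a and 9.39 and 9.43 in 15b, and its difference of -0.41 (SE 0.17) was without overlap. Tecta, the alpha-tectorin gene, measured 7.15 to 7.29 at 4 weeks and 6.86 to 7.23 at 15 weeks, a difference of -0.10 (SE 0.12), and Otoa, the otoancorin gene, differed by -0.12 (SE 0.15). Col9a1, a collagen chain of the tectorial membrane and cartilage, lay on the other side, at 0.33 (SE 0.15). Of the 10 tectorial membrane and otic glycoprotein genes tested, 5 were higher and 5 lower, with a median of -0.04, or -0.10 without the first array of 15b. Prox1, a transcription factor gene of supporting cells, differed by -0.25 (SE 0.15), and 13 of 18 supporting cell and Notch pathway genes were lower, with a median of -0.04. That median was negative in all 4 pairs of pools.

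Connexin and gap junction genes lay higher at 15 weeks, 8 of 9 tested, with a median of 0.13 that was between 0.07 and 0.21 in the 4 pairs of pools. Gja4, which encodes connexin 37 of vessels, measured 6.78 and 6.91 in 4a, 7.28 and 7.0 in 4b, 7.11 and 7.15 in 15a and 7.45 and 7.48 in 15b, and Gjc1, which encodes connexin 45, differed by 0.22 (SE 0.11). Gjb2 and Gjb6, the connexins of the supporting cell and fibrocyte networks, differed by 0.12 (SE 0.14) and 0.09 (SE 0.11), and without the first array of 15b by 0.06 each. The list median was then also 0.06. Panx3, a pannexin gene of bone and cartilage cells, differed most, by 0.46 (SE 0.54), and 15b at 9.71 and 10.40 carried it against 8.18 to 9.14 on the other 6 arrays. Panx1 lay on the other side, at -0.17 (SE 0.14). No member of the list was without overlap.

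In the lateral wall, 2 of the 20 fibrocyte genes tested, Otos and Slc4a11, were higher without overlap, against 1.50% of all genes. Otos, which encodes the secreted protein otospiralin, measured 12.54 and 12.50 in 4a, 12.66 and 12.74 in 4b, 12.96 and 13.02 in 15a and 12.83 and 13.20 in 15b, a difference of 0.39 (SE 0.13). Slc4a11, a transporter gene of fibrocytes, measured 7.65 and 7.38 in 4a, 7.42 and 7.49 in 4b, 7.82 and 8.02 in 15a and 8.36 and 8.15 in 15b, a difference of 0.60 (SE 0.20), and its second tested probe had the same sign. The list of 20 fibrocyte genes tested had 13 higher and 7 lower with a median of 0.07. That median lay between -0.01 and 0.11 in the 4 pairs of pools and was 0.005 without 15a. Atp1b1, a sodium pump subunit gene, was the farthest on the other side at -0.21 (SE 0.12). Among 10 ion transport genes of the stria vascularis, 7 were higher, with a median of 0.06. This median was -0.03 in 15b minus 4b, -0.01 without 15a and 0.02 without the first array of 15b. Kcne1, a potassium channel subunit gene, measured 9.23 and 9.09 in 4a, 9.38 and 9.24 in 4b, 9.12 and 9.26 in 15a and 9.65 and 9.65 in 15b, with 15b above the other pools, and 2 of its 4 tested probes had the same sign. Slc26a4, which encodes pendrin, an anion exchanger, measured 10.06 and 10.19 in 4a, 10.96 and 10.62 in 4b, 11.14 and 10.69 in 15a and 10.37 and 9.96 in 15b, and its pools differed within each age by more than the ages did, at 0.08 (SE 0.32) or, without the first array of 15b, -0.02. Cldn11, the claudin of strial basal cells and of myelin, measured 13.54 and 13.47 in 4a, 13.49 and 13.53 in 4b, 13.30 and 13.34 in 15a and 13.48 and 13.09 in 15b.

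Of 12 melanocyte genes, 9 were lower, with a median of -0.07. Rab27a, which encodes a small GTPase that moves melanosomes and other vesicles, measured 10.42 and 10.34 in 4a, 10.18 and 10.56 in 4b, 9.60 and 10.15 in 15a and 9.996 and 9.83 in 15b and did not overlap between the ages. Dct, an enzyme gene of pigment synthesis, differed by 0.12 (SE 0.17) and Mlana, the gene of a melanosome protein, by -0.11 (SE 0.21). Without the first array of 15b the list median was -0.03. Of 8 aquaporin genes, 7 were lower, with a median of -0.10, led by Aqp3 at -0.18 (SE 0.12), while Aqp5 differed by 0.29 (SE 0.33). Without the first array of 15b the differences were -0.26 and 0.11.

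On the neural side the pools disagreed. The 22 spiral ganglion neuron genes tested had a median of -0.08, which was 0.08 in 15a minus 4a and -0.20 in 15b minus 4b. Prph, the peripherin gene of unmyelinated neurons, measured 9.52 and 9.59 in 4a, 9.66 and 9.57 in 4b, 9.87 and 9.52 in 15a and 7.76 and 8.75 in 15b, and Gap43, a growth cone gene, measured 8.22 and 8.42 in 4a, 8.57 and 8.36 in 4b, 8.52 and 8.38 in 15a and 7.17 and 7.84 in 15b. In both genes 15b lay below the other 3 pools, and its first array was the lower. The difference between the ages was -0.61 for Prph and -0.42 for Gap43, and without that array -0.36 and -0.25, with a list median of -0.04. Of 20 Schwann cell and myelin genes, 15 were higher, with a median of 0.14. Mbp, the myelin basic protein gene, measured 12.42 and 12.39 in 4a, 13.20 and 12.72 in 4b, 13.10 and 12.55 in 15a and 12.91 and 12.71 in 15b, with the 2 ages overlapping. Sox10, a transcription factor gene of glia and of strial intermediate cells, differed by -0.06 (SE 0.18), and by 0.02 without the first array of 15b.

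Lists of bone, muscle and immune genes showed differences that belonged to single pools. Of 19 osteoblast and osteocyte genes tested, 18 were higher at 15 weeks with a median of 0.21, but the median was -0.49 in 15a minus 4a and 0.96 in 15b minus 4b, and it was -0.29 without 15b. The mean level of the list was 9.59 in 4a, 9.24 in 4b, 9.18 in 15a and 10.10 in 15b. Col2a1, the chain of cartilage collagen, measured 10.16 and 10.24 in 4a, 9.74 and 9.45 in 4b, 9.43 and 9.17 in 15a and 11.13 and 11.63 in 15b, with 15b highest and 15a lowest. Among collagen genes 27 of 33 were higher, with medians of -0.06 and 0.30 in the 2 pairs of equal letter, and 2 basement membrane chains, Col4a1 at 0.34 (SE 0.18) and Col4a6 at 0.24 (SE 0.14), were higher without overlap, against 1.50% of all genes. Also 2 chains were lower without overlap, against 2.15%, Col8a2 at -0.34 (SE 0.20) and Col17a1 at -0.16 (SE 0.11). Skeletal muscle genes were lower in 35 of 42, with a mean level of 8.76, 9.18, 8.17 and 9.08 in 4a, 4b, 15a and 15b, and without 15a the list median was 0.12.

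The MHC class II list had a mean level of 8.99 in 4a, 9.06 in 4b, 9.07 in 15a and 8.51 in 15b, so that 1 of the 4 pools lay apart. The same pool lay lowest in the lists of MHC class I genes (8.41), interferon response genes (8.45) and complement genes (8.44), and the other 3 pools ran from 8.56 to 8.89 in these lists. Tap1, a peptide transporter gene of the class I pathway, measured 7.31 and 7.29 in 4a, 7.61 and 7.54 in 4b, 6.92 and 6.95 in 15a and 7.13 and 6.92 in 15b, and here all 15-week arrays lay below all 4-week arrays. Macrophage genes had a median of 0.21 in 15a minus 4a and -0.28 in 15b minus 4b. Ciliated epithelium genes had a mean level of 7.30, 7.67, 7.39 and 7.15 in 4a, 4b, 15a and 15b.

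Over all 55 lists, the median had opposite signs in 15a minus 4a and 15b minus 4b for 34. It had one sign in all 4 pairs of pools for 11 lists. These were higher for the connexin, plasma cell, endothelial and pericyte lists, and lower for the supporting cell, melanocyte, aquaporin, keratin, core clock, clock output and Wnt, BMP and TGF-beta lists. For the last of these the median over the pool means was 0.01. Without the first array of 15b, 21 of the 55 medians moved by over 1.5 times or changed sign. Among the lists described here and not given with this value above or below, the median was then -0.03 for metalloproteases and 0.03 for the Wnt, BMP and TGF-beta list.

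**Figure D5:**
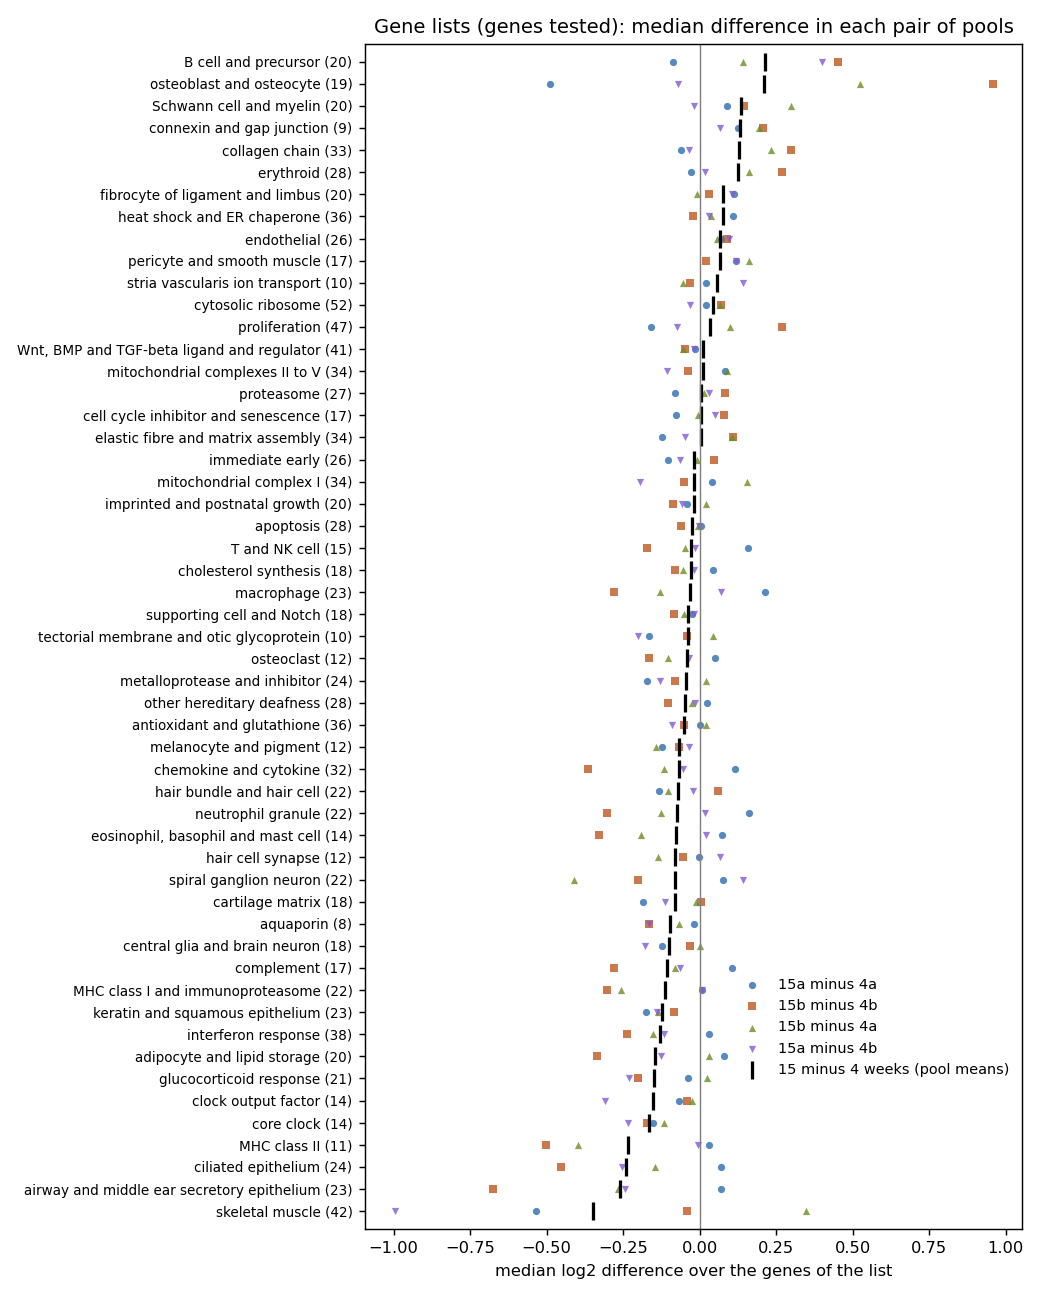
Median log2 difference over the genes of a list for the 53 lists with 8 or more genes tested, with the black mark giving 15 minus 4 weeks over pool means and the coloured marks the 4 pairs of pools. Bone, muscle and airway lists spread widest, and the core clock, keratin and connexin lists keep all marks on one side of 0.

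Vessel genes leaned higher in every pair of pools. Of 26 endothelial genes, 17 were higher, with a median of 0.07, between 0.06 and 0.10 in the pairs. Sox18, a transcription factor gene of endothelium, measured 7.78 and 7.71 in 4a, 7.92 and 7.74 in 4b, 7.96 and 8.09 in 15a and 8.11 and 8.15 in 15b and did not overlap between the ages. Cldn5, the claudin of the blood barrier, measured 9.46 and 9.43 in 4a, 8.71 and 9.06 in 4b, 9.45 and 10.11 in 15a and 9.06 and 9.99 in 15b, with the arrays of 15a and of 15b spread over more than the difference of 0.49 (SE 0.20). Vwf, the von Willebrand factor gene, lay on the other side at -0.28 (SE 0.25). Of 17 pericyte and smooth muscle genes 13 were higher, led by Rgs5, a pericyte regulator of G protein signalling, at 0.53 (SE 0.23).

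Growth and housekeeping lists had small medians over the pool means. The 47 proliferation genes tested had a median of 0.03, with 27 higher, but -0.16 in 15a minus 4a and 0.27 in 15b minus 4b, and 0.18 without 15a and -0.13 without 15b. The 20 imprinted and postnatal growth genes tested had a median of -0.02. Ndn, the imprinted gene of necdin, which is high in developing neurons, measured 11.45 and 11.26 in 4a, 11.15 and 11.24 in 4b, 10.66 and 11.12 in 15a and 10.84 and 11.11 in 15b, a difference of -0.34 (SE 0.14) without overlap. Id3, a target of BMP signalling that inhibits helix-loop-helix factors, measured 7.59 and 7.97 in 4a, 8.16 and 8.22 in 4b, 8.33 and 8.36 in 15a and 8.65 and 8.26 in 15b and was higher without overlap. The medians were -0.02 for 34 genes of mitochondrial complex I, 0.01 for 34 of complexes II to V, 0.04 for 52 cytosolic ribosome genes and 0.00 for 27 proteasome genes. Heat shock and chaperone genes had a median of 0.07 with 23 of 36 higher, and antioxidant and glutathione genes -0.05 with 22 of 36 lower. Without the first array of 15b the medians were -0.01 for proliferation, 0.02 for imprinted and growth genes, 0.015 for complex I, 0.02 for complexes II to V, 0.02 for the proteasome, 0.04 for chaperones and -0.03 for antioxidant genes. Hspa9, the mitochondrial chaperone mortalin, measured 12.10 and 12.21 in 4a, 12.27 and 12.24 in 4b, 11.97 and 11.92 in 15a and 12.03 and 11.78 in 15b, and all 15-week arrays lay below all 4-week arrays. Birc2, an inhibitor of apoptosis, differed by -0.38 (SE 0.16) without overlap, and Apaf1, a core of the apoptosome, by -0.34 (SE 0.19) with overlap.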

How the data were processed

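Total RNA of pooled cochleae was labelled and hybridised, per the labels' protocols, to Illumina BeadChips. The deposited value table holds log2 levels, which the authors had normalized between arrays: the sorted columns are identical, so a shift of most transcripts cannot be seen. The labels name neither background correction nor software. A second deposited table with 12 value columns that match no label was not used. Of the probes, 34885 had 1 gene symbol in the platform annotation, 18 several and 10378 none, and 34807 were matched by gene number to RefSeq GRCm38.p6.

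The 2 arrays of a pool were averaged. One linear model over the 6 pools of 3 ages was fitted to 22640 probes (all-probe median 5.87) in R 4.3.3 by limma 3.58.1 (functions lmFit, contrasts.fit and eBayes; residual degrees of freedom 3, prior 3.84), contrast 15 minus 4 weeks and Benjamini-Hochberg adjustment at 0.05. SE is the moderated standard error. P-values measure the spread between pools. Gene lists (55, with 1548 genes, 1414 of them in the annotation and 72 in more than 1 list) are described by the brightest tested probe of each gene.

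Named genes were those of smallest p among genes whose arrays did not overlap (12 on each side), up to 4 members of each list in the direction of its median and 1 against it, the 5 higher and 5 lower of largest difference, and a set list of cochlear and sex-linked genes. Beyond the rule, genes of the array checks, Krt15, Lgals7, Muc1, Wfdc2, Cyp2e1, Col4a1, Col4a6, Col8a2, Col17a1 and further clock genes were named after their values were seen. The members and lists were chosen with earlier results of these data known. The letters a and b were not used to pair the pools in the main fit. The deviations b minus a correlated across probes at -0.112 between 4 and 15 weeks, at 0.183 between 4 and 45 and at -0.388 between 15 and 45. With a single deviation per age, these values cannot decide whether pools of a letter were handled together.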

Additional observations from a re-analysis of the deposited data

How the results depend on the processing

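The count of called probes was 0 in every setting run except 2. When the 12 arrays entered singly, with a random block per pool (correlation 0.296), limma called 2 probes, Sftpd at -1.78 (SE 0.22, adjusted p = 0.0225) and Krt17 at -1.04 (SE 0.14, adjusted p = 0.029). With the crossed replicate block (4a with 15b, 4b with 15a), added after the data were seen, it called 1, Sftpd. Probes with unadjusted p under 0.05 numbered 302, and 961 without a filter on level, 120 with a filter at the 75th percentile, 188 with 1 probe per gene, 146 with the first array of each pool only, 521 with the random block and 603 with the crossed block. The first 3 differ in the number of probes tested; for the others the cause was not tested. With the replicate block of letters a and b, paired as labelled, the count was 226 with 0 called. Leaving out each pool in turn gave 230 to 536, the lowest without 15b and the highest without 15a (522 without 4a), and 0 called. Probes whose arrays did not overlap numbered 757, and 1357 without a filter, 402 with the 75th percentile filter, 460 with 1 probe per gene and 1487 without the first array of 15b. The 24 named genes of smallest p kept their direction in 398 of 398 values. Their choice by arrays that do not overlap fixed this in advance, so it is no measure of stability. Of 55 list medians, 25 kept their sign without each pool in turn and 22 in all 17 alternatives. With 2 pools per age, 4b alone with raised Xist and no detection values used, small differences and low levels are not resolved.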

Other observations

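Single genes of neutrophils and other granulocytes, marrow cells that share the bone around the cochlea, lay on either side between the ages. Ltf, the lactoferrin gene, measured 14.73 and 14.58 in 4a, 14.57 and 14.57 in 4b, 14.09 and 14.44 in 15a and 14.17 and 14.14 in 15b, and Mpo, which encodes the myeloperoxidase of granules, measured 14.13 and 14.04 in 4a, 13.998 and 14.17 in 4b, 13.71 and 13.998 in 15a and 13.54 and 13.52 in 15b. Hdc, which makes histamine in mast cells and basophils, measured 11.03 and 11.02 in 4a, 11.25 and 11.29 in 4b, 10.79 and 10.96 in 15a and 10.79 and 10.75 in 15b. Every 15-week array of Ltf and Hdc lay below every 4-week array, and the 15-week arrays of Mpo lay below all 4-week arrays except the second array of 15a, which lay level with the first of 4b. Stfa1 and Prg3, also granulocyte genes, lay on the other side without overlap. Without overlap, 1 gene was higher and 1 lower of 22 tested in the neutrophil list. In the eosinophil, basophil and mast cell list it was 1 and 1 of 14, against 1.50% higher and 2.15% lower over all genes. The latter list had 9 genes lower and 5 higher, with a median of -0.08, which was 0.07 in 15a minus 4a and -0.33 in 15b minus 4b. The neutrophil granule list had 15 of 22 tested genes lower with a median of -0.07, which was 0.16 in 15a minus 4a, -0.30 in 15b minus 4b and -0.04 without the first array of 15b.

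Genes of the B lineage were low in 1 pool. Fcrla, an Fc receptor-like gene of B cells, measured 9.50 and 9.59 in 4a, 8.47 and 8.40 in 4b, 9.88 and 9.64 in 15a and 9.76 and 9.89 in 15b, and Mzb1, a chaperone gene of plasma cells, measured 9.55 and 9.56 in 4a, 9.19 and 9.27 in 4b, 9.74 and 9.73 in 15a and 10.02 and 10.23 in 15b. Vpreb1, part of the surrogate light chain of precursors, measured 9.29 and 9.02 in 4a, 8.0 and 8.29 in 4b, 9.05 and 8.99 in 15a and 9.61 and 9.53 in 15b. For all 3 genes 4b lay below the other 3 pools, and for Vpreb1 4a lay within the range of 15 weeks. Pool 4b was also the pool with raised Xist, and the part of that imbalance in these values was not tested. The mean level of the B cell list was 7.92 in 4a, 7.41 in 4b, 7.86 in 15a and 8.05 in 15b, and its median difference was 0.21 over pool means and -0.09 in 15a minus 4a.

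Probes of Actb, the cytoplasmic actin gene, disagreed. The probe of highest level measured between 14.13 and 14.58 on all 8 arrays, while another measured 9.32 and 10.11 in 4a, 9.75 and 9.63 in 4b, 8.28 and 8.16 in 15a and 11.21 and 8.27 in 15b. Of the 5 tested probes of Actb, 4 had a negative difference. The differences were -0.72, -0.62, -0.35, -0.21 and 0.055. Without the first array of 15b they were, in the same order, -1.46, -1.39, -0.485, -0.20 and 0.45.

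Mean levels of 1099 tested probes, 826 of them named, lay at or below the limit of 5.87 in at least 1 of the 2 ages. Some lay below it in both and passed through the 45-week pools. Tshb, a pituitary hormone gene, had means of 5.54 at 4 weeks, 5.48 at 15 weeks and 6.72 at 45 weeks.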
